A study of Mus musculus with 12 samples.

Results

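The genes described here encode the bone morphogenetic protein (BMP), activin and transforming growth factor beta (TGF beta) pathways, followed in sorted macula densa cells and control cells of the mouse kidney. Members were chosen by gene symbol: Bmp and Gdf ligands, TGF beta and inhibin genes, Bmpr, Acvr and Tgfbr receptors, Smads, Smurfs, Id genes, latent TGF beta binding proteins, and antagonists such as noggin, chordin and follistatin. The rule found 62 of the 23378 genes in the table, and used no measured value.

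Macula densa cells are specialised tubule cells where the thick ascending limb meets its own glomerulus; they sense tubular salt and control renin release and filtration. All mice were C57BL/6 and carried nNOS-CreERT2 with the mTmG reporter: in this genotype, named nNosCreERT2-mTmG in the labels, the Cre is driven by nNOS and switches macula densa cells from membrane tdTomato to membrane GFP. After 14 days on control diet, or on low salt diet plus enalapril, which inhibits the angiotensin-converting enzyme, at 150 mg/L in drinking water (LS+ACEi), kidney cortex was digested and cells were sorted. GFP cells are the macula densa group, and the brightest tdTomato cells, taken by the submitters as epithelium of the distal tubule and collecting duct, are the control cells. There were 2 macula densa and 4 control-cell libraries on each diet, made from total RNA. The labels do not say that replicates came from separate animals, so p-values here measure the spread between these libraries, which may be partly technical. Ages are not given in the sources used here.

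BMP, activin and TGF beta ligands are secreted dimers that bind pairs of type I and type II receptor kinases. BMP receptors phosphorylate Smad1, Smad5 and Smad9, activin and TGF beta receptors phosphorylate Smad2 and Smad3, and both kinds of Smad enter the nucleus with Smad4. The Id genes are classic BMP targets, Smad6 and Smad7 are feedback inhibitors, and TGF beta is stored in matrix in complexes with latent TGF beta binding proteins. In the kidney TGF beta is best known as a driver of fibrosis, and Bmp7 as a growth factor of nephron development that opposes it.

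Promoter sequence from RefSeq (build GRCm38.p6) was matched to 45 of the 62 genes, with 56 promoter windows. Each window was searched on both strands for GGCGCC, the GC-rich element described at BMP target genes. The same search was made for CAGAC, the CAGA element that Smad3 and Smad4 bind. Neither motif contains the other. GGCGCC was found in 13 of the 56 member windows (23.2%, 12 genes) and in 9.59% of all 32851 windows of the same length, and CAGAC in 25 (44.6%, 21 genes) against 42.2%. A match describes letters only and is not a binding site. The 250 bases before the annotated start are shown for Gdf11, a ligand called between cell populations on control diet and not on LS+ACEi, for Id2, the Id gene with the largest diet difference in macula densa, and for Smad9, a BMP-specific Smad that was low in macula densa. Capitals mark GGCGCC, which lies 231 bases before the start in Id2 and 51 bases before it in Smad9; neither motif occurs in the Gdf11 window. In order, the windows are chr10:128891719-128891968 (minus strand), chr12:25096093-25096342 (minus strand) and chr3:54755332-54755581 (plus strand).
Gdf11: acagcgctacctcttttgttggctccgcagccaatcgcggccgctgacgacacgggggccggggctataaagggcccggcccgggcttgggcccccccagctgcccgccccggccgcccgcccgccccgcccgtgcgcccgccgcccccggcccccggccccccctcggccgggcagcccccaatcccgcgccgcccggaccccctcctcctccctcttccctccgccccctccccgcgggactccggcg
Id2: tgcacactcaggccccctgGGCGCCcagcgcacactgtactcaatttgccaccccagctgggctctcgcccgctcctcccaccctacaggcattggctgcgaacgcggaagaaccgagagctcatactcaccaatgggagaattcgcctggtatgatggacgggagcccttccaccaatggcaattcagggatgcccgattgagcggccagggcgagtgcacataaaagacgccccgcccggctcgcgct
Smad9: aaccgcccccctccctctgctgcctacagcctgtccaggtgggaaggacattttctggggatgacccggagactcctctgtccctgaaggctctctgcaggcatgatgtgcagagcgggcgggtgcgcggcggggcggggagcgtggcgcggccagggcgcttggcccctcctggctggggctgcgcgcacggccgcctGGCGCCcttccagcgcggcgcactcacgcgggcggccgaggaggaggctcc

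Library totals were 4259020 to 14856542 estimated counts, of which 781257 to 2331481 fell on nuclear protein-coding genes; a single gene, Gm42418, took 53.5% to 65.0% of each library. Levels are counts per 1000000 (CPM) on TMM-scaled library totals, so they are low in absolute terms, and 3 counts correspond to 0.230 to 0.732 CPM in a library. Nos1, the gene behind the Cre, was at 100 to 231 CPM in the macula densa libraries and at most 0.732 CPM in control cells. Ren1, which encodes renin, was the 1 gene called between diets in control cells. Control-cell libraries varied in what they held. The summed level of 10 endothelium markers, among them Pecam1, Kdr and Cdh5, was 53.6 to 1702 CPM on control diet and 277 to 1343 CPM on LS+ACEi, against 14.4 to 187 CPM in macula densa libraries. The 8 podocyte markers such as Nphs1 summed to 44.4 to 1368 CPM in control cells and 19.1 to 155 CPM in macula densa. Principal cell markers of the collecting duct, the labelled source, summed to 114 to 930 CPM in control cells. Endothelium markers were lowest in control-diet control-cell replicate 4 (53.6 CPM) and in LS+ACEi replicates 3 (277 CPM) and 1 (387 CPM); the other 5 control-cell libraries were above 900 CPM and are called endothelium-rich here. The same 5 also held more podocyte marker RNA (697 to 1368 CPM, against 44.4 to 214 CPM in the other 3) and more leukocyte marker RNA (42.6 to 137 CPM, against 6.08 to 14.9 CPM), so these cell types cannot be told apart in a fit without those libraries. Tubule content differed as well. The 5 held 44.5 to 231 CPM of macula densa markers, against 234 to 433 CPM in the other 3. Most of that sum was Slc12a1, at 41.7 to 223 CPM and 219 to 429 CPM, respectively. Slc12a1 is also on the thick ascending limb list, so the sum does not measure macula densa RNA in control cells. Thick ascending limb markers overlapped, at 218 to 1050 CPM in the 5 and 818 to 1646 CPM in the other 3. The counts of members called between cell populations are given with and without them. Without them a single control-cell library stands for control diet, and it is assumed to vary like the other groups. The libraries kept still held endothelium marker RNA. On LS+ACEi they were at 277 and 387 CPM, against 14.4 and 18.5 CPM in macula densa. On control diet the 1 kept, at 53.6 CPM, lay between the 28.5 and 187 CPM of macula densa. A call that stays in that fit can therefore still hold an endothelium part, which was not tested.

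Of the 62 members, 48 passed the filter on low counts, among 14180 genes tested with edgeR's quasi-likelihood test; a gene was called at a Benjamini-Hochberg adjusted p under 0.05. The 14 others reached at most 15 counts and 1.55 CPM in any library. They include the ligands Gdf2 and Bmp10, which signal through Acvrl1, the ligands Bmp15, Bmp8a, Gdf5, Gdf6, Inhbb and Inhbe, the receptor Acvr1c, the matrix protein Ltbp2, and Nog, Chrd, Chrdl1 and Fstl5, of which Nog and Chrd encode the secreted BMP antagonists noggin and chordin. On control diet 6 of 48 members were called between macula densa and control cells (12.5%), 2 higher and 4 lower in macula densa, where 6.61% of all genes tested were called (2.69% higher and 3.92% lower). On LS+ACEi 8 of 48 were called (16.7%), 2 higher and 6 lower, against 7.27% of all genes (3.15% higher and 4.13% lower). With both diets averaged 21 of 48 were called (43.8%), 3 higher and 18 lower, against 21.3% of all genes (7.48% higher and 13.9% lower). The median log2 fold change over the 48 members was -0.62 in the averaged comparison and -0.06 over all genes tested. All 4 macula densa libraries lay below all 8 control-cell libraries for 10 of the 48 (20.8%), where 5.3% of all genes did, and above them for 1 (4.3% of all genes). By diet, the libraries did not overlap for 18 lower and 3 higher members on control diet (16.7% and 15.2% of all genes) and for 21 lower and 7 higher on LS+ACEi (19.5% and 15.2%). Since the libraries are bulk RNA, fewer cells of a type and less RNA per cell cannot be told apart in any of these values. Without the 5 endothelium-rich libraries 14 members were called in the averaged comparison, 5 higher and 9 lower, and 10 of the 21 remained, among them Bmp2, Bmp3 and Gdf11, which were higher, and Fst, Fstl1, Gdf15, Id1, Tgfbr2 and Tgfbr3, which were lower. The other 11, all lower, were not called there. On control diet 6 members were called without those libraries, but only Bmp3 and Gdf11 were among the 6 called with all libraries; the 4 gained include Bmper, Bmpr1b and Fst. On LS+ACEi 12 were called, 7 of the 8 called with all libraries (Fstl1 was lost) and Bmper, Gdf15, Grem1, Id4 and Ltbp4 in addition.

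Single libraries also bore on the calls. Leaving out 1 library at a time gave 2 to 17 called members on control diet, 1 to 15 on LS+ACEi and 13 to 27 with both diets averaged. The highest count in each case came without control-diet control-cell replicate 4, and the lowest without macula densa replicate 2 of the diet concerned (of control diet for the average). Control diet gave 3 called members without macula densa replicate 1 or control-cell replicate 3; LS+ACEi gave 5 without control-diet control-cell replicate 3 or LS+ACEi control-cell replicate 4, and 4 without macula densa replicate 1. Bmp3 and Gdf11 on control diet, Bmp2 on LS+ACEi, and the same 10 genes in the average were called in every alternative that tested them. The control-diet call of Tgfbr2 was lost without macula densa replicate 2, and those of Id1 and Gdf15 without either macula densa replicate or control-cell replicate 3 (Gdf15 also without control-cell replicate 1). Tgfbr3 kept its control-diet call only when control-cell replicate 4 or a library of the other diet was left out. On LS+ACEi the calls of Bmp3 (adjusted p = 0.0582) and Tgfbr3 (0.0683) were lost without macula densa replicate 2 alone, Tgfbr2 without either macula densa replicate, and Id1 without macula densa replicate 2 or control-cell replicate 4. Fst and Fstl1 lost their LS+ACEi call without either macula densa replicate, without control-diet control-cell replicate 3 and without LS+ACEi control-cell replicate 2 or 4, and Fst also without replicate 1. In the average, the calls of Acvrl1, Bmp6, Ltbp1 and Smad6 were lost without control-diet macula densa replicate 2, those of Bmp6, Ltbp1 and Smad6 also without LS+ACEi macula densa replicate 1, those of Ltbp1 and Smad6 also without LS+ACEi macula densa replicate 2, and those of Gdf10, Smad2, Smurf1 and Tgfb1 without any of several libraries. Scaling by library totals alone, which moved the median of all genes from -0.06 to 0.14, gave 5 higher and 14 lower members in the average.

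**Figure D1:**
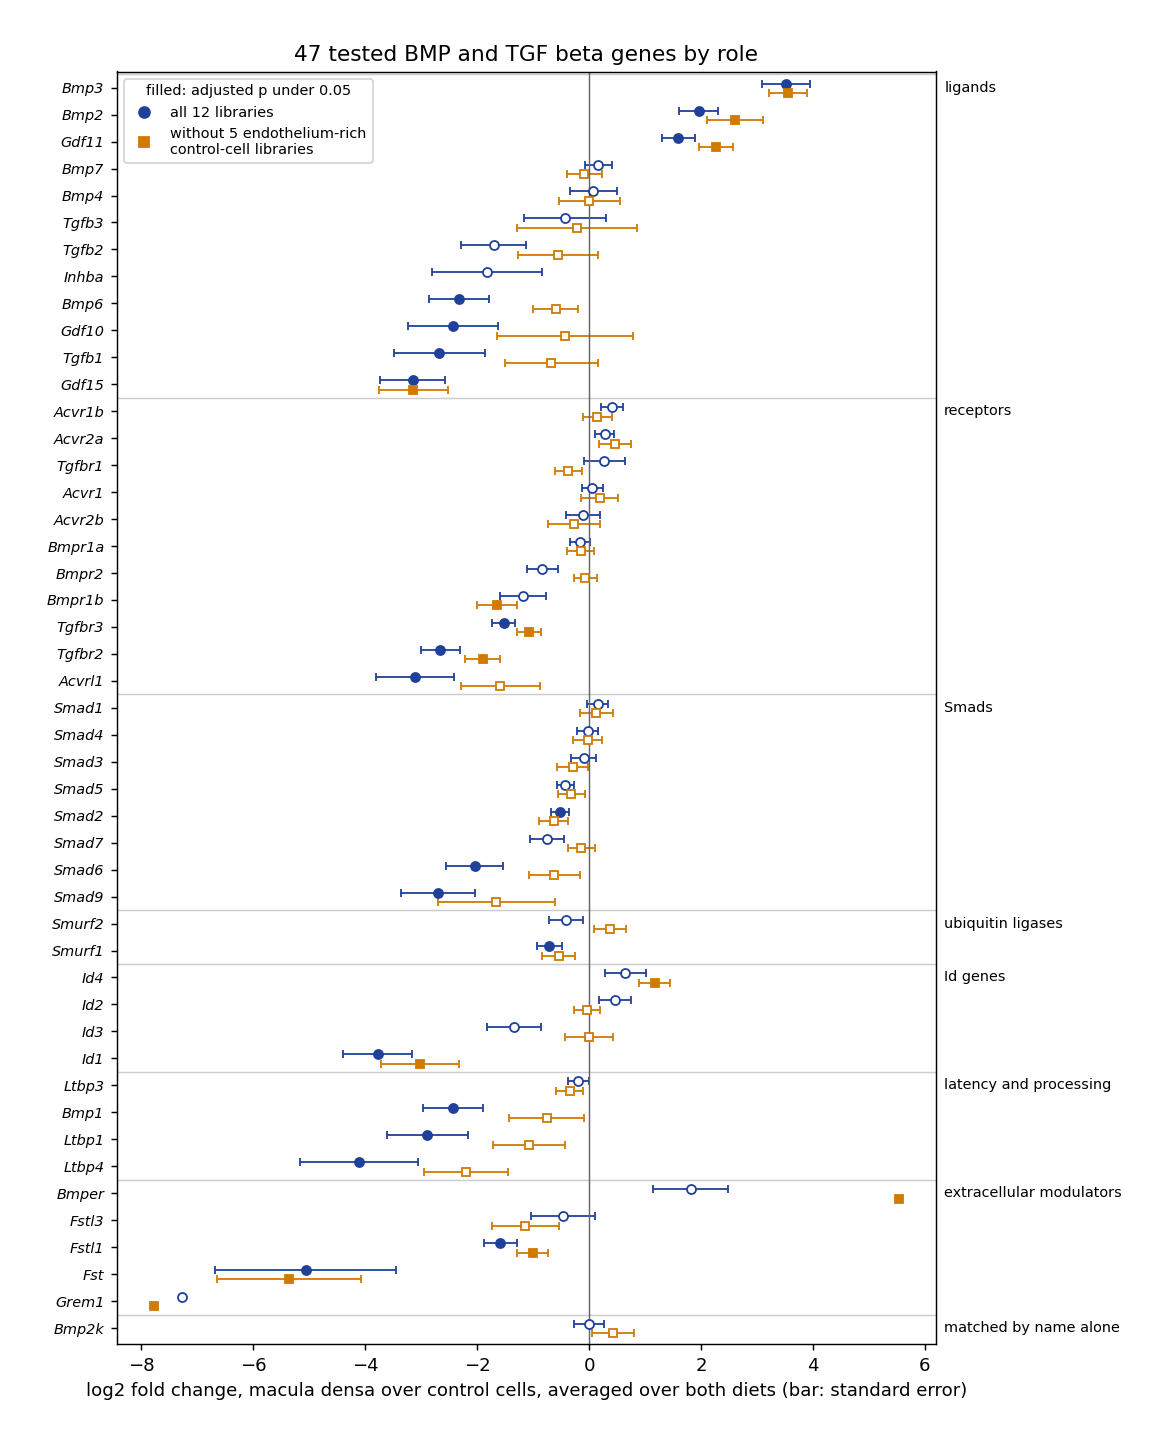
Log2 fold change of macula densa over control cells, averaged over both diets, for 47 of the 48 tested members ordered by role. Circles use all 12 libraries and squares leave out the 5 control-cell libraries above 900 CPM of endothelium markers; filled symbols have an adjusted p under 0.05 and bars are standard errors, absent where a group had no count (Grem1, and Bmper in the smaller set); Inhba was not tested in the smaller set. Bmp3, Bmp2 and Gdf11 stay to the right in both, while Bmp6, Tgfb1 and Smad6 lie nearer 0 in the smaller set.

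Among the 12 tested ligands, Bmp3, Gdf11 and Bmp2 were higher in macula densa, and Gdf15, Bmp6, Gdf10 and Tgfb1 were lower, in the averaged comparison. Bmp3, an atypical BMP that binds activin type II receptors and opposes BMP signalling, lies at chr5:98854415-98884396 (mm10). It was at 75.3 and 53.9 CPM in the 2 control-diet macula densa libraries and 102 and 108 CPM in those on LS+ACEi. In control cells it was at 6.98, 3.66, 6.37 and 2.99 CPM on control diet and 23.9, 5.86, 7.13 and 3.25 CPM on LS+ACEi. Every macula densa library lay above every control-cell library; among members this held for Bmp3 alone, and 4.3% of all genes tested showed it. The log2 fold change was 3.52 ± 0.43 (SE) averaged over diets (edgeR adjusted p = 0.000204), 3.69 ± 0.61 on control diet (adjusted p = 0.00448) and 3.35 ± 0.60 on LS+ACEi (adjusted p = 0.00670), and 3.56 without the endothelium-rich libraries. Per kilobase of exon, Bmp3 had the highest mean level of the 62 members in macula densa on control diet (8.73 CPM per kb) and the second highest, after Id2 (17.4 CPM per kb), on LS+ACEi (14.2 CPM per kb).

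Gdf11, a circulating ligand of the activin branch that signals through Smad2 and Smad3, lies at chr10:128882295-128891718. It stood at 24.8 and 19.4 CPM in macula densa on control diet and at 5.73 and 7.04 CPM on LS+ACEi. Control cells were at 3.16, 5.62, 2.95 and 1.96 CPM on control diet and 3.14, 7.08, 2.94 and 5.17 CPM on LS+ACEi. The control-diet macula densa libraries were above all 10 others, and the LS+ACEi ones lay within the range of the control cells on that diet. On control diet the log2 fold change over control cells was 2.68 ± 0.40 (edgeR adjusted p = 0.00238) and on LS+ACEi 0.50 ± 0.43 (adjusted p = 0.489). Leaving out the endothelium-rich libraries, the averaged value moved from 1.59 to 2.27.

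Bmp2, a canonical BMP ligand, lies at chr2:133552159-133562885 and had the opposite pattern over diets. Its levels in macula densa were 3.79 and 1.38 CPM on control diet and 14.3 and 9.49 CPM on LS+ACEi. In control cells they were 1.75, 2.62, 1.996 and 0.825 CPM on control diet and 1.15, 1.22, 0.629 and 1.32 CPM on LS+ACEi. Both LS+ACEi macula densa libraries lay above all others, and the control-diet ones overlapped the control cells. On LS+ACEi the log2 fold change over control cells was 3.41 ± 0.50 (edgeR adjusted p = 0.00214), and on control diet 0.50 ± 0.49 (adjusted p = 0.585).

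**Figure D2:**
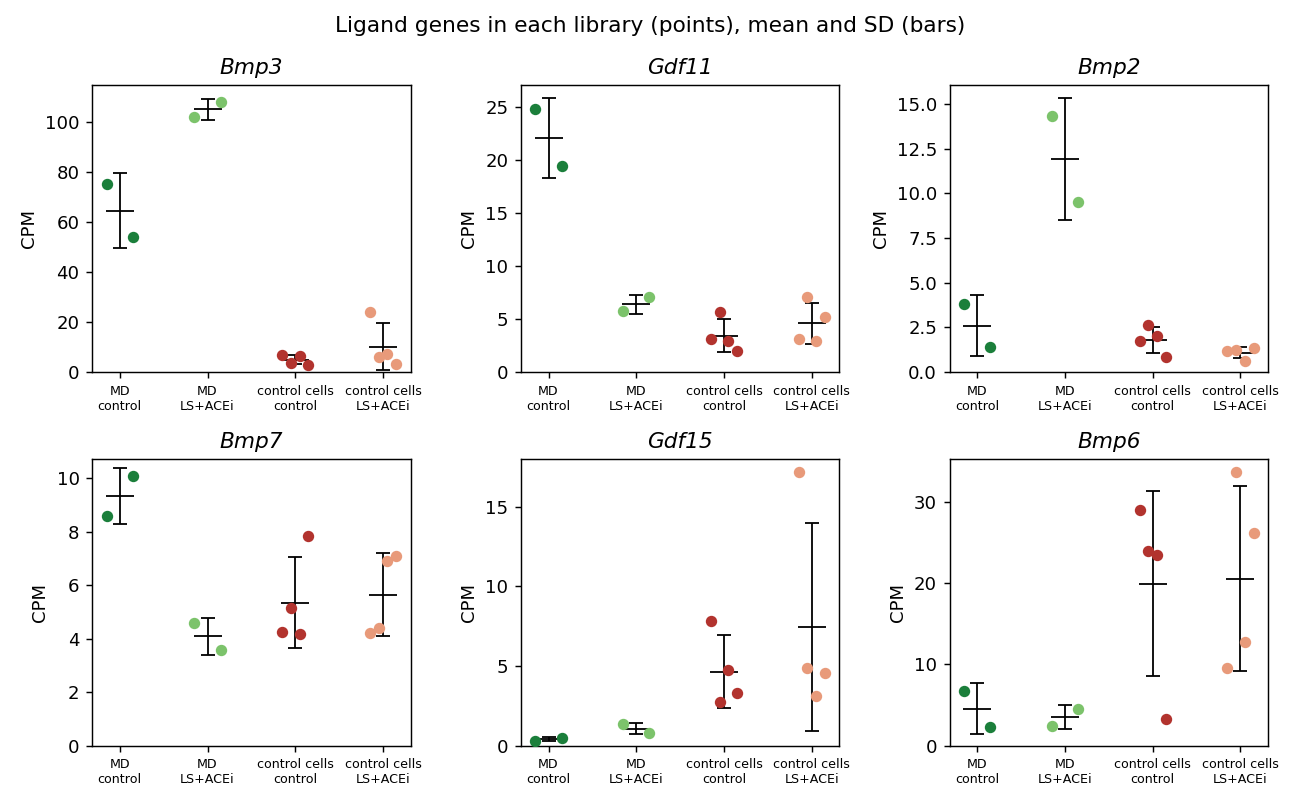
Level in CPM (vertical axes, linear) of 6 ligand genes in each library by cell population and diet; points are libraries, horizontal marks group means and bars SDs (n = 2 for macula densa, MD, and n = 4 for control cells). Bmp3 is above every control-cell library in all 4 macula densa libraries, Gdf11 is high in macula densa on control diet alone, and Bmp2 is high in macula densa on LS+ACEi alone.

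Gdf15, a stress-induced distant member of the family that acts through a receptor in the brainstem, was at 0.307 and 0.488 CPM in macula densa on control diet and 1.34 and 0.818 CPM on LS+ACEi. Control cells held 7.86, 2.72, 4.75 and 3.30 CPM on control diet and 17.2, 4.88, 3.15 and 4.57 CPM on LS+ACEi, all above the macula densa libraries. The averaged log2 fold change was -3.15 ± 0.58 (edgeR adjusted p = 0.00321) and -3.14 without the endothelium-rich libraries. The levels of the other 3 lower ligands varied among control cells, and on each diet were lowest in the libraries with few endothelium markers. Bmp6, a BMP made by endothelial cells among others, was at 6.76 and 2.36 CPM in macula densa on control diet and 2.48 and 4.58 CPM on LS+ACEi. In control cells it was at 29.02, 23.9, 23.5 and 3.30 CPM on control diet and 9.58, 33.7, 12.8 and 26.2 CPM on LS+ACEi, lowest in control-diet replicate 4 and LS+ACEi replicates 1 and 3, the libraries with the least endothelium marker RNA. Its averaged log2 fold change was -2.33 ± 0.54 (edgeR adjusted p = 0.0146) with all libraries and -0.60 ± 0.41 (adjusted p = 0.518) with those 3 control-cell libraries alone. Some Bmp6 exons overlap Txndc5 on the opposite strand (224 bases), so part of its count is uncertain.

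Tgfb1, the most studied TGF beta isoform, was at 3.69 and 0.0813 CPM in macula densa on control diet and 0.573 and 1.80 CPM on LS+ACEi. It was at 14.7, 11.4, 9.60 and 1.55 CPM in control cells on control diet and 3.76, 15.4, 3.56 and 16.7 CPM on LS+ACEi. Its averaged log2 fold change of -2.67 ± 0.81 (edgeR adjusted p = 0.0396) became -0.68 (adjusted p = 0.775) without the endothelium-rich libraries. Gdf10, an atypical family member also called Bmp3b, was at 0.512 and 0.0813 CPM in macula densa on control diet and 0.382 and 1.64 CPM on LS+ACEi, and its control-cell values were 5.24, 7.78, 3.99 and 0.928 CPM on control diet and 0.383, 3.91, 0.839 and 3.15 CPM on LS+ACEi. Its averaged log2 fold change was -2.43 ± 0.81 (edgeR adjusted p = 0.0472), and -0.43 without those libraries. The other 5 tested ligands were not called. Bmp7, the nephron growth factor, was at 8.60 and 10.1 CPM in macula densa on control diet and 4.58 and 3.60 CPM on LS+ACEi, and at 4.25, 5.16, 4.18 and 7.84 CPM in control cells on control diet and 4.22, 4.39, 6.92 and 7.10 CPM on LS+ACEi. Macula densa was above every control-cell library on control diet and overlapped them on LS+ACEi. Averaged over diets Bmp7 differed by 0.17 ± 0.24 (log2; -0.08 ± 0.32 without the endothelium-rich libraries), Bmp4 by 0.08 ± 0.42, Tgfb3 by -0.44 ± 0.74, Tgfb2 by -1.70 ± 0.58 and Inhba by -1.83 ± 0.99.

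Among the 11 tested receptors, 3 were lower in macula densa in the averaged comparison and none was higher. Tgfbr2 (chr9:116084293-116175360), the type II receptor for TGF beta itself, was at 14.1 and 5.29 CPM in macula densa on control diet and 8.40 and 6.05 CPM on LS+ACEi. In control cells its levels were 82.6, 69.5, 50.9 and 28.4 CPM on control diet and 37.9, 56.4, 29.8 and 68.3 CPM on LS+ACEi. On both diets every control-cell library was above every macula densa library. Its log2 fold change was -2.58 ± 0.47 on control diet (edgeR adjusted p = 0.0166), -2.73 ± 0.50 on LS+ACEi (adjusted p = 0.0139) and -2.66 ± 0.34 averaged (adjusted p = 0.000744). Within control cells Tgfbr2 was also lowest in the 3 libraries with the least endothelium marker RNA, and against those 3 alone the averaged value was -1.90 ± 0.31 (adjusted p = 0.000749). The control-diet call was lost without the endothelium-rich libraries.

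Tgfbr3 (chr5:107106570-107289629), the co-receptor betaglycan that presents TGF beta 2 and inhibin, was at 14.1 and 13.1 CPM in macula densa on control diet and 10.9 and 8.999 CPM on LS+ACEi. It was at 39.7, 35.9, 30.7 and 20.2 CPM in control cells on control diet and 27.7, 38.6, 31.2 and 44.5 CPM on LS+ACEi, again with no overlap. The averaged log2 fold change was -1.53 ± 0.20 (edgeR adjusted p = 0.000631), and -1.08 ± 0.22, still called, without the endothelium-rich libraries. Without them Tgfbr3 was at -0.58 ± 0.34 on control diet, where its call was lost, and at -1.57 ± 0.29 on LS+ACEi. An overlapping gene on the same strand, Gm43422, shares 297 exonic bases with Tgfbr3. Acvrl1, the type I receptor ALK1 of endothelium, was at 2.77 and 0.894 CPM in macula densa on control diet and 3.06 and 0 CPM on LS+ACEi. In control cells it ranged over 24.2, 21.2, 17.96 and 3.92 CPM on control diet and 7.67, 14.9, 4.40 and 20.3 CPM on LS+ACEi, lowest in the 3 libraries with the least endothelium marker RNA. Its averaged value went from -3.11 ± 0.70 (edgeR adjusted p = 0.0114) to -1.59 ± 0.70 (adjusted p = 0.237) without the endothelium-rich libraries.

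The remaining receptors were expressed in macula densa at levels whose difference from control cells did not pass the test. Tgfbr1, the type I partner of Tgfbr2, was at 19.4 and 22.6 CPM in macula densa on control diet and 29.03 and 25.5 CPM on LS+ACEi, against 8.73, 11.3, 15.6 and 24.5 CPM in control cells on control diet and 27.1, 13.4, 51.6 and 12.99 CPM on LS+ACEi. Its averaged log2 fold change was 0.27 ± 0.37, and -0.37 ± 0.24 without the endothelium-rich libraries. Bmpr2, the BMP type II receptor, was at 55.4 and 40.9 CPM and 55.4 and 43.7 CPM in macula densa on the respective diets. It was at 141, 107, 97.6 and 43.2 CPM in control cells on control diet and 52.3, 92.5, 67.9 and 100 CPM on LS+ACEi, and its averaged value was -0.84 ± 0.28 with all libraries (edgeR adjusted p = 0.0577) and -0.07 ± 0.21 without the endothelium-rich ones. The type I receptors Bmpr1a, Acvr1b and Acvr1 differed by -0.17 ± 0.18, 0.41 ± 0.20 and 0.06 ± 0.18. The activin type II receptors Acvr2a and Acvr2b differed by 0.28 ± 0.17 and -0.11 ± 0.31. Bmpr1b, another BMP type I receptor, was at -1.18 ± 0.41 (edgeR adjusted p = 0.0669) with all libraries. It was called without the endothelium-rich ones (-1.64 ± 0.36), with DESeq2, and without control-diet control-cell replicate 1 or LS+ACEi control-cell replicate 3. Without the endothelium-rich libraries it was at -2.33 ± 0.52 on control diet and -0.96 ± 0.49 on LS+ACEi. The control-diet value there rests on control-cell replicate 4 alone, at 17.8 CPM for Bmpr1b. The other control-diet control-cell libraries were at 2.84, 6.75 and 8.27 CPM.

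**Figure D3:**
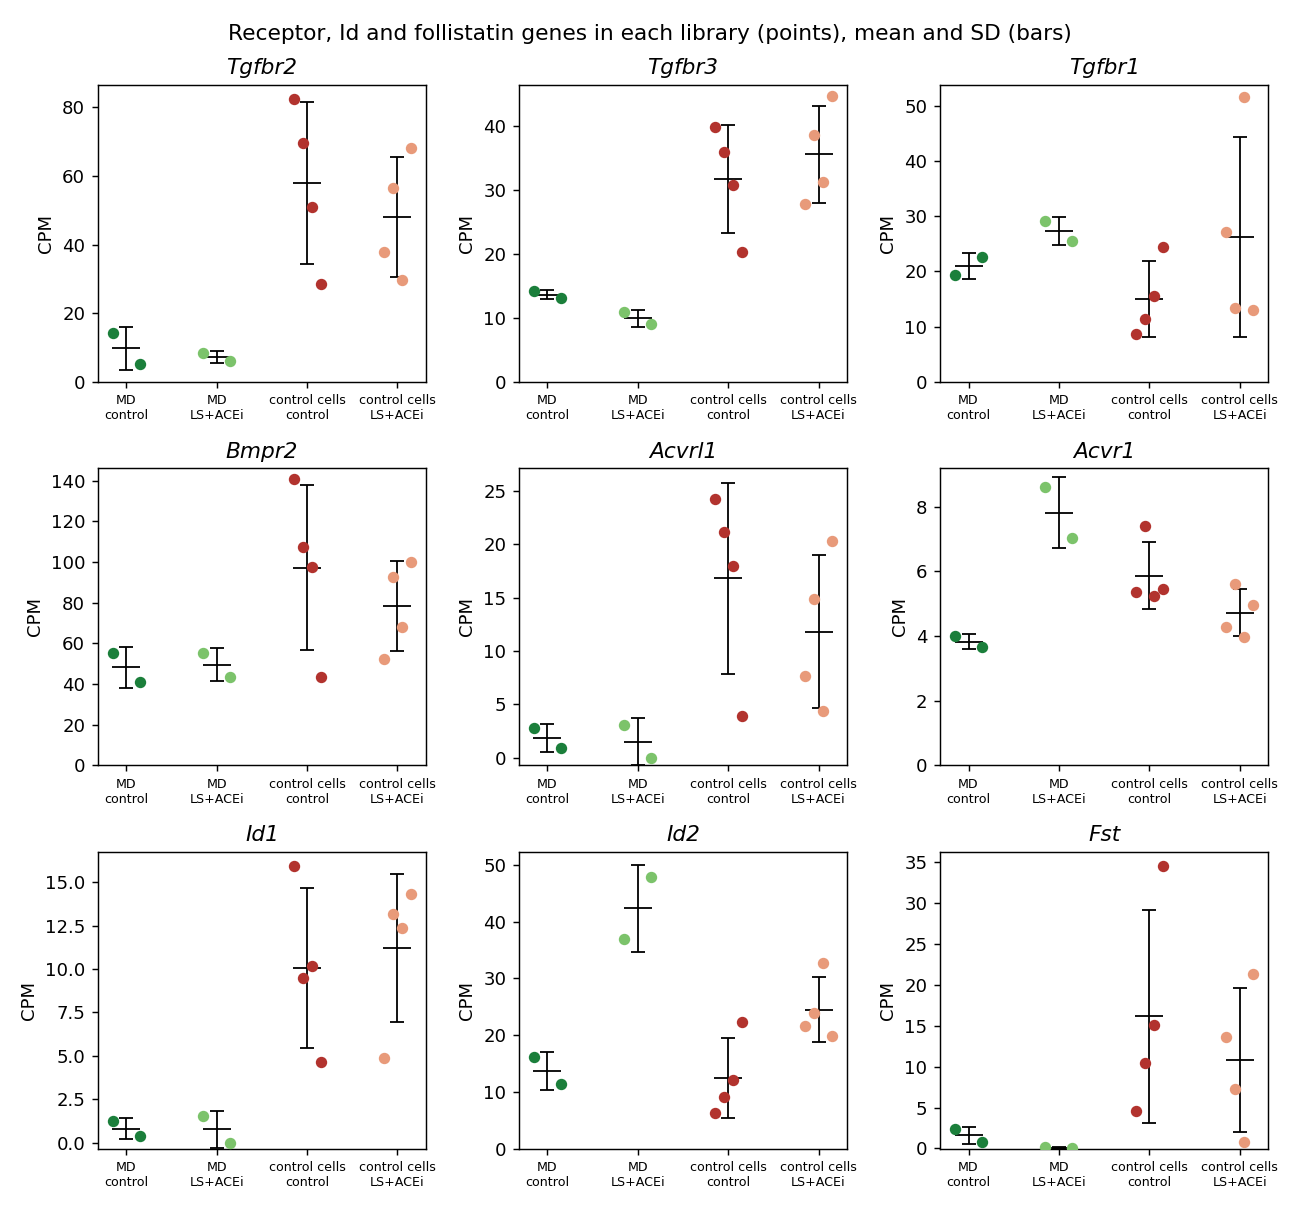
Level in CPM (vertical axes, linear) of 6 receptor genes, Id1, Id2 and Fst in each library by cell population and diet; points are libraries, horizontal marks group means and bars SDs (n = 2 for macula densa, MD, and n = 4 for control cells). Tgfbr2, Tgfbr3 and Id1 lie below the control cells in all 4 macula densa libraries, Tgfbr1 overlaps, and Id2 is highest in macula densa on LS+ACEi.

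All 8 Smads were tested; Smad9, Smad6 and Smad2 were lower in macula densa in the averaged comparison, and none was called without the endothelium-rich libraries. Smad9, whose promoter is printed above, was at 0.102 and 0.732 CPM in macula densa on control diet and 0.191 and 0.654 CPM on LS+ACEi, against 4.15, 2.62, 3.99 and 0.928 CPM in control cells on control diet and 1.07, 2.69, 3.15 and 4.77 CPM on LS+ACEi. The averaged log2 fold change was -2.70 ± 0.66 (edgeR adjusted p = 0.0117) and -1.66 ± 1.05 without those libraries. Smad6, which blocks BMP receptors, was at 11.4 and 1.95 CPM and 5.54 and 6.38 CPM in macula densa on the respective diets. Its control-cell levels were 35.3, 41.99, 39.1 and 6.40 CPM on control diet and 11.4, 30.03, 17.6 and 29.2 CPM on LS+ACEi, with low values in the same 3 libraries as for Bmp6. The averaged value was -2.05 ± 0.52 (edgeR adjusted p = 0.0217) and -0.62 ± 0.45 without the others.

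Smad2, an activin and TGF beta Smad, was at 6.76 and 7.24 CPM in macula densa on control diet and 7.83 and 7.53 CPM on LS+ACEi. Control cells held 11.6, 8.72, 10.4 and 10.6 CPM on control diet and 11.3, 8.30, 13.000 and 10.7 CPM on LS+ACEi, every library above macula densa. The size was small, -0.53 ± 0.16 on the log2 scale (edgeR adjusted p = 0.0365), and it was -0.64 ± 0.26 (adjusted p = 0.196) without the endothelium-rich libraries. Smad7, the general inhibitory Smad, was at 20.7 and 13.9 CPM in macula densa on control diet and 14.7 and 11.9 CPM on LS+ACEi, and at 31.1, 30.8, 32.03 and 23.9 CPM in control cells on control diet and 12.3, 32.95, 10.7 and 32.4 CPM on LS+ACEi. It was not called (-0.75 ± 0.30, edgeR adjusted p = 0.106, and -0.14 ± 0.24 without the endothelium-rich libraries). The BMP Smads Smad1 and Smad5 differed by 0.15 ± 0.19 and -0.43 ± 0.15, Smad3 by -0.09 ± 0.22 and the common partner Smad4 by -0.02 ± 0.19. Of the ubiquitin ligases that degrade Smads and receptors, Smurf1 was at 5.63 and 5.69 CPM in macula densa on control diet and 8.40 and 4.91 CPM on LS+ACEi, and at 12.2, 10.5, 8.27 and 6.40 CPM in control cells on control diet and 11.04, 9.03, 13.8 and 9.23 CPM on LS+ACEi. Its averaged value of -0.71 ± 0.22 was called (edgeR adjusted p = 0.0425), but in only 6 of 21 alternatives, and not without the endothelium-rich libraries (-0.54 ± 0.30, adjusted p = 0.387). Smurf2 at -0.41 ± 0.30 was not called, and was at 0.38 ± 0.28 without those libraries.

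Of the 4 Id genes, which encode helix-loop-helix proteins that hold back differentiation factors, Id1 alone was called. Id1 (chr2:152736251-152737410) was at 1.23 and 0.407 CPM in macula densa on control diet and 1.53 and 0 CPM on LS+ACEi. In control cells it was at 15.9, 9.47, 10.2 and 4.64 CPM on control diet and 4.91, 13.2, 12.4 and 14.3 CPM on LS+ACEi, with no overlap. The log2 fold change was -3.64 ± 0.78 on control diet (edgeR adjusted p = 0.0232), -3.91 ± 0.95 on LS+ACEi (adjusted p = 0.0254) and -3.77 ± 0.62 averaged (adjusted p = 0.00153), and -3.02 ± 0.69 (adjusted p = 0.00956) averaged without the endothelium-rich libraries, where the control-diet call was lost. Id2 was at 16.1 and 11.4 CPM in macula densa on control diet and 36.9 and 47.8 CPM on LS+ACEi. Control cells were at 6.22, 9.19, 12.2 and 22.4 CPM on control diet and 21.6, 23.9, 32.7 and 19.8 CPM on LS+ACEi. Id4, whose exons overlap Gm49291, was at 10.96 and 10.2 CPM in macula densa on control diet and 16.04 and 25.7 CPM on LS+ACEi. Control cells were at 12.3, 8.81, 13.5 and 14.8 CPM on control diet, overlapping macula densa, and at 2.45, 11.96, 3.56 and 11.5 CPM on LS+ACEi, all below it. Averaged over diets Id2 differed by 0.46 ± 0.29, Id3 by -1.34 ± 0.48 and Id4 by 0.65 ± 0.37, none of them called with all libraries. Without the endothelium-rich ones Id2 was at -0.03 ± 0.23, Id3 was within 0.01 of 0 on the log2 scale (SE 0.44), and Id4 was called at 1.17 ± 0.28. That Id4 average joined opposite signs, -0.50 ± 0.41 on control diet and 2.84 ± 0.37 on LS+ACEi. For Id4 the LS+ACEi control-cell libraries kept were at 2.45 and 3.56 CPM, and those left out at 11.96 and 11.5 CPM.

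**Figure D4:**
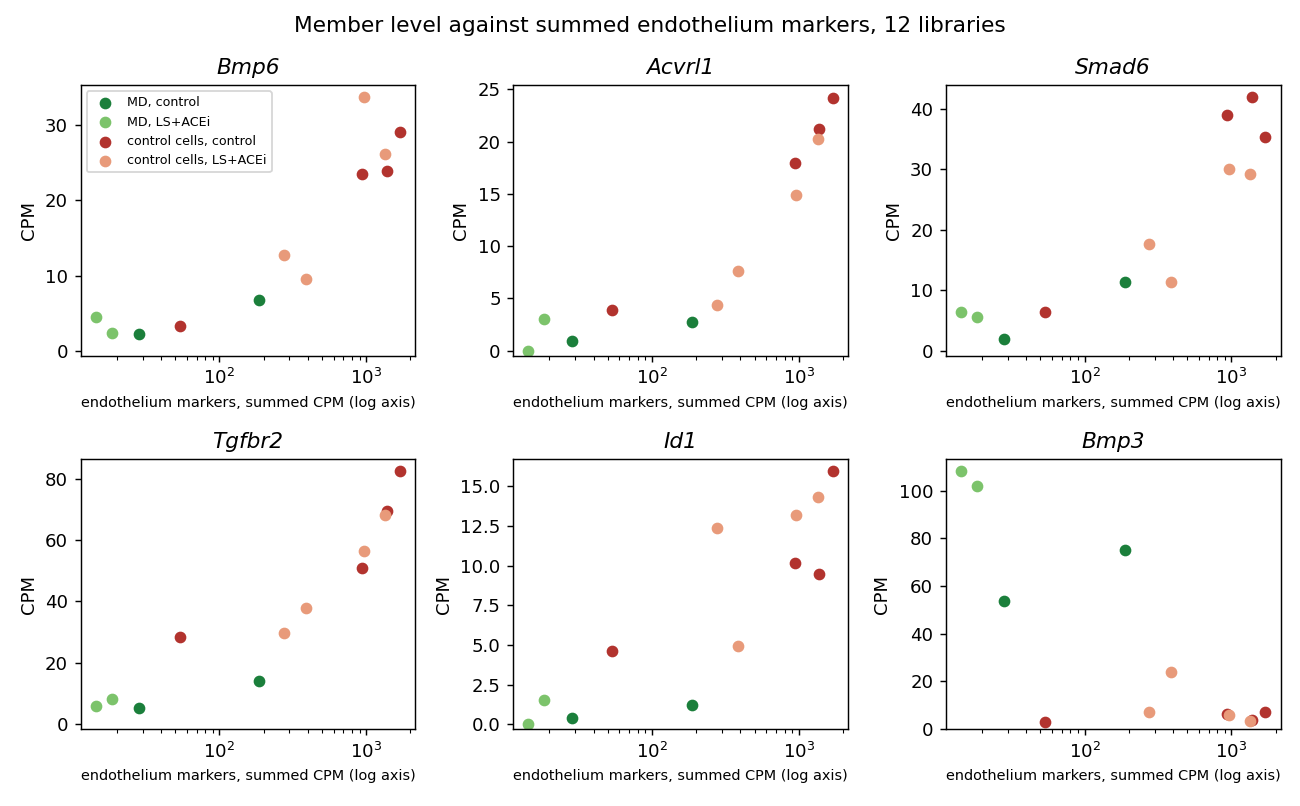
Level in CPM (vertical axes, linear) of 6 member genes against the summed CPM of 10 endothelium markers (horizontal axes, log scale) in the 12 libraries, coloured by cell population (MD, macula densa) and diet. Bmp6, Acvrl1 and Smad6 are low wherever the markers are low, in control cells too; Tgfbr2 and Id1 are lower in macula densa than in the control-cell libraries with the fewest markers; Bmp3 is high in macula densa alone.

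Of the 4 tested genes for TGF beta storage and ligand processing, 3 were lower in macula densa in the averaged comparison. Ltbp4, a latent TGF beta binding protein, was at 6.76 and 1.38 CPM in macula densa on control diet and 0.573 and 0 CPM on LS+ACEi. In control cells it was at 48.004, 45.1, 30.04 and 6.09 CPM on control diet and 3.37, 22.2, 4.61 and 12.6 CPM on LS+ACEi, and in macula densa it was highest in control-diet replicate 1, which also held the most endothelium marker RNA of the 4 (187 CPM). The averaged log2 fold change was -4.11 ± 1.06 (edgeR adjusted p = 0.00755), and -2.21 ± 0.75 (adjusted p = 0.0658) without the endothelium-rich libraries. On LS+ACEi 3 counts in macula densa against 281 in control cells gave a pooled ratio of 33.5 (exact 95% interval 11.3 to 163, counting error only). Ltbp1 was at 5.12 and 0.488 CPM in macula densa on control diet and 0.764 and 1.80 CPM on LS+ACEi, against 30.8, 22.96, 14.9 and 2.48 CPM in control cells on control diet and 6.75, 19.3, 5.87 and 13.4 CPM on LS+ACEi. Bmp1, which despite its name is a metalloprotease that cleaves procollagen and chordin, was at 1.13 and 0.813 CPM in macula densa on control diet and 0.955 and 0.818 CPM on LS+ACEi. Its control-cell levels were 6.66, 5.72, 5.89 and 0.619 CPM on control diet and 3.53, 6.84, 4.40 and 6.70 CPM on LS+ACEi. Averaged values were -2.89 ± 0.72 for Ltbp1 and -2.43 ± 0.54 for Bmp1 (edgeR adjusted p = 0.0172 and 0.00867), and -1.07 and -0.76, not called, without the endothelium-rich libraries. Ltbp3 was not called (-0.19 ± 0.18): macula densa was at 16.8 and 17.7 CPM and 30.7 and 17.8 CPM on the respective diets, and control cells at 19.5, 21.9, 23.95 and 24.97 CPM on control diet and 32.1, 22.9, 21.4 and 20.3 CPM on LS+ACEi.

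Among the extracellular modulators, Fst and Fstl1 were lower in macula densa, and both were called also without the endothelium-rich libraries. Fst encodes follistatin, which neutralises activins. It was at 2.36 and 0.813 CPM in macula densa on control diet and 0.191 and 0 CPM on LS+ACEi, against 4.58, 10.4, 15.1 and 34.6 CPM in control cells on control diet and 13.6, 7.32, 0.839 and 21.4 CPM on LS+ACEi. Fst was highest in control-diet replicate 4, the library with the fewest endothelium and the most principal cell markers (930 CPM), and low in LS+ACEi replicate 3, which overlapped the macula densa range of control diet. The averaged log2 fold change was -5.06 ± 1.62 (edgeR adjusted p = 0.00526) and -5.37 ± 1.29 without the endothelium-rich libraries. On LS+ACEi a single count in macula densa against 423 in control cells gave a pooled ratio of 151 (exact 95% interval 27.0 to 5982, counting error only).

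Grem1, which encodes the BMP antagonist gremlin 1, had no count in any macula densa library, and control cells held 0.109, 0.469, 0.570 and 0.413 CPM on control diet and 42.5, 0.732, 1.89 and 0.507 CPM on LS+ACEi. On LS+ACEi that is at least 34.1-fold lower in macula densa at a floor of 3 counts per library, a bound that rests on replicate 1, where 555 of the 572 counts lie; Grem1 was not called with all libraries (edgeR adjusted p = 0.0759). Fstl1, a secreted glycoprotein related to follistatin, was at 13.1 and 9.68 CPM in macula densa on control diet and 4.20 and 6.38 CPM on LS+ACEi. Control cells were at 34.6, 29.5, 37.3 and 22.3 CPM on control diet and 12.6, 26.6, 8.81 and 22.8 CPM on LS+ACEi. The averaged value was -1.59 ± 0.29 (edgeR adjusted p = 0.00407) and -1.005 ± 0.28 (adjusted p = 0.0343) without the endothelium-rich libraries. Bmper, which binds BMPs outside the cell, was at 2.25 and 3.74 CPM in macula densa on control diet and 8.79 and 2.95 CPM on LS+ACEi, and at 1.09, 2.91, 1.05 and 0 CPM in control cells on control diet and 0.767, 1.22, 0.210 and 2.03 CPM on LS+ACEi. It was not called in the average with all libraries (1.82 ± 0.67, edgeR adjusted p = 0.0628). Without the endothelium-rich libraries it was called higher in macula densa on control diet (adjusted p = 0.0358), on LS+ACEi (0.0221) and in the average (0.00218), where control diet has 1 control-cell library, which held no count, and DESeq2 and library-total scaling also called it in the average. Fstl3 was at -0.47 ± 0.57. Bmp2k, a kinase that the rule took in by name and that is not a ligand, differed by -0.01 ± 0.27 (0.43 ± 0.37 without the endothelium-rich libraries), and 1185 of its exonic bases overlap Paqr3 on the opposite strand.

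Between diets, no member passed the test in macula densa, in control cells, or for the difference of the diet effects, and 0% of all genes tested were called in macula densa, 0.00705% (Ren1 alone) in control cells and 0% for the difference. At an unadjusted p under 0.05 the test had 7 members and 1594 genes in macula densa, 5 members and 914 genes in control cells, and 5 members and 997 genes for the difference. With 2 libraries a group the comparison in macula densa is weak: on simulated counts with these means, 39.0% of 4-fold changes were called there, against 87.4% in control cells. The simulation drew each gene independently and held no shared differences in cell content between replicates, so it can overstate the share in real libraries. In macula densa both LS+ACEi libraries lay above both control-diet ones for 13 of the 48 members (18.8% of all genes) and below them for 8 (21.9% of all genes). In control cells no member was without overlap between diets, where 2.1% of all genes were higher and 2.09% lower on LS+ACEi. Macula densa libraries also differed between diets in marker RNA. Thick ascending limb markers summed to 3441 and 4361 CPM on control diet and 2486 and 2642 CPM on LS+ACEi. Proximal tubule markers summed to 208 and 370 CPM and 85.6 and 170 CPM on the respective diets. Macula densa markers went the other way, at 2147 and 2423 CPM and 3078 and 2649 CPM. Within that list Slc12a1, which is on the thick ascending limb list too, was at 1766 and 2023 CPM and 1869 and 2007 CPM. Nos1 was at 100 and 111 CPM and 231 and 121 CPM. Such sums can hold diet changes of the marker genes themselves, which were not told apart from cell content. The part of cell content in the diet differences below was not tested.

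Gdf11 and Bmp2, each called between cell populations on a single diet, had diet differences in macula densa that did not pass the test. Gdf11 was at 22.1 ± 3.78 CPM (SD, n = 2) on control diet and 6.38 ± 0.924 CPM on LS+ACEi, a log2 fold change of -1.79 ± 0.47 (edgeR adjusted p = 0.255), while in control cells it was 0.39 ± 0.35. Bmp2 was at 2.59 ± 1.70 and 11.9 ± 3.42 CPM on these diets in macula densa (2.21 ± 0.54, adjusted p = 0.229) and was at -0.70 ± 0.45 in control cells. The difference between the populations' diet effects was -2.18 ± 0.59 for Gdf11 and 2.91 ± 0.70 for Bmp2, neither past the threshold (edgeR adjusted p = 0.558 for both). Bmp7 had a diet difference of -1.19 ± 0.39 in macula densa and 0.08 ± 0.27 in control cells; both macula densa libraries on control diet lay above both on LS+ACEi.

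Id2 was at 13.7 ± 3.32 CPM on control diet and 42.3 ± 7.72 CPM on LS+ACEi in macula densa (1.63 ± 0.47, edgeR adjusted p = 0.292) and at 12.5 ± 7.03 and 24.5 ± 5.72 CPM in control cells (0.97 ± 0.34, adjusted p = 0.670; n = 4). Id4 differed by 0.99 ± 0.60 in macula densa and -0.76 ± 0.43 in control cells. Acvr1, the type I receptor ALK2, was at 3.99 and 3.66 CPM in macula densa on control diet and 8.59 and 7.04 CPM on LS+ACEi, and at 5.35, 7.40, 5.23 and 5.47 CPM in control cells on control diet and 4.29, 5.61, 3.98 and 4.97 CPM on LS+ACEi. Macula densa was thus below every control-cell library on control diet and above every one on LS+ACEi, and the difference of the diet effects was 1.35 ± 0.37 (edgeR adjusted p = 0.558). Fstl1 was at -1.10 ± 0.48 in macula densa and -0.81 ± 0.32 in control cells. Ltbp4 was at -3.84 ± 1.99 and -1.62 ± 0.70; the endothelium markers summed to 28.5 and 187 CPM in the control-diet macula densa libraries and to 14.4 and 18.5 CPM on LS+ACEi, and their part in this difference was not tested.

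Other settings changed these calls. Fitted on the 4 macula densa libraries alone, Id2 was called at 1.65 ± 0.26 (edgeR adjusted p = 0.00894) and Gdf11 at -1.77 ± 0.30 (adjusted p = 0.0163), and Bmp2 was not (adjusted p = 0.0670). DESeq2's Wald test on all libraries called Bmp2 alone of the members (adjusted p = 0.0447), with 93 genes called in all. No setting called a member for the difference of the diet effects.

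**Figure D5:**
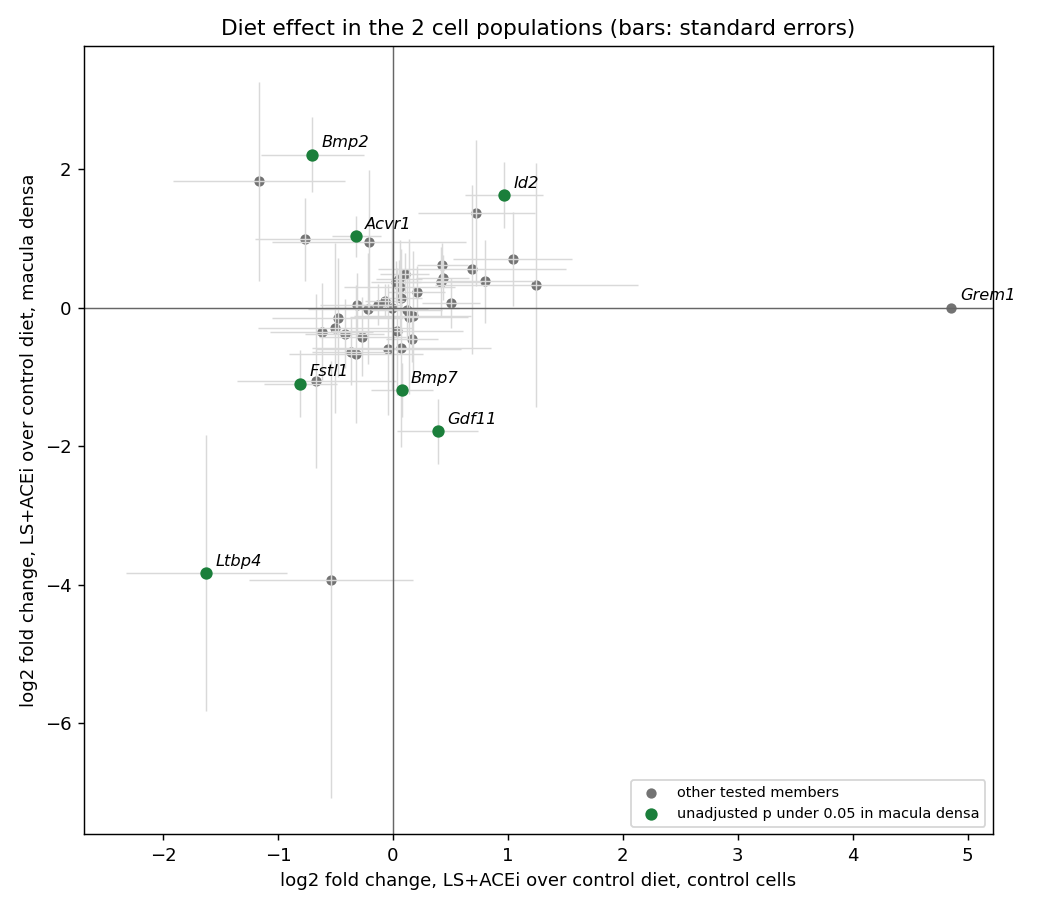
Log2 fold change of LS+ACEi over control diet in control cells (horizontal axis) and in macula densa (vertical axis) for 47 of the 48 tested members; bars are standard errors, and green points have an unadjusted p under 0.05 in macula densa. Of the genes drawn, those with an unadjusted p under 0.05 in either population are named, none passes after adjustment, and Grem1 has no error bar because it had no count in macula densa.

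Beyond the 62 members, 64 further genes of these pathways were listed, of which 51 are in the table and 46 were tested. With both diets averaged 18 of the 46 were called, 4 higher and 14 lower in macula densa, where 21.3% of all genes were called (7.48% higher and 13.9% lower), and their median log2 fold change over the 46 was -0.23. The 4 higher genes were Pmepa1 (0.96 ± 0.15), a TGF beta-induced protein that restrains receptor-activated Smads, Sostdc1 (1.87 ± 0.50), a secreted BMP antagonist, Itgav (0.94 ± 0.21), the integrin chain that releases latent TGF beta, and Neo1 (0.54 ± 0.16), which binds the BMP co-receptors of the repulsive guidance family. Pmepa1 was at 19.9 and 24.5 CPM in macula densa on control diet and 28.5 and 22.7 CPM on LS+ACEi, above all control cells (10.7, 12.7, 14.4 and 15.8 CPM on control diet and 9.89, 12.7, 11.3 and 11.4 CPM on LS+ACEi). Sostdc1 was at 67.8 and 84.4 CPM and 78.7 and 80.7 CPM in macula densa on the respective diets, and control cells ranged from 7.96 CPM to the 50.6 CPM of control-diet replicate 4. Among the lower genes with the smallest p, Lrrc32, which anchors latent TGF beta on cell surfaces, was at -3.59 ± 0.62, Fbn1 (fibrillin) at -2.68 ± 0.46, Atoh8, a BMP target, at -3.46 ± 0.76 and Vasn, which binds TGF beta, at -1.09 ± 0.21. Eng, the endothelial co-receptor endoglin, was at 21.6 and 2.76 CPM in macula densa on control diet and 1.15 and 0 CPM on LS+ACEi, and in control cells ranged from 5.26 CPM in control-diet replicate 4, where endothelium markers were lowest, to 166 CPM. On control diet 6 of the 46 were called (6.61% of all genes), all lower, and on LS+ACEi 5 (7.27% of all genes), of which Pmepa1 was higher and 4 were lower; none was called between diets. Without the endothelium-rich libraries 42 were tested and 8 called in the average, 2 higher and 6 lower, and 6 of the 18 remained. Pmepa1 (0.88 ± 0.22), Lrrc32 (-2.43 ± 0.68), Fbn1 (-2.04 ± 0.60) and Eng (-2.38 ± 0.72) were among those that remained. Sostdc1 (1.09 ± 0.36), Itgav, Neo1, Atoh8 and Vasn were not called. For Eng that average joined opposite signs, 1.18 ± 0.82 on control diet and -5.95 ± 1.17 on LS+ACEi.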

How the data were processed

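The deposited table holds estimated counts per gene made by the authors from total-RNA libraries of 12 sorted samples; per the labels' protocols RNA was purified from FACS-sorted cells and libraries were made with a stranded total-RNA kit. STAR 2.61, Partek and build mm10 are named in the submitters' processing notes; whether counting used strand is not given in the sources used here, so genes with overlapping exons are uncertain. No value column was left unused. Of all values 16.1% were not whole (4.17% of the members' values), and counts were rounded before testing. Coordinates match GENCODE M21 (GRCm38) for every member.

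The members, gene lists and tests were chosen with earlier results of these data known. Genes were kept by filterByExpr in edgeR 4.0.16 (R 4.3.3; minimum count 10, minimum total 15), scaled by TMM and fitted with the quasi-likelihood test in 1 model of 12 libraries with a coefficient per group; p-values were adjusted over all 14180 genes (Benjamini-Hochberg). Standard errors come from the fitted weights and moderated dispersion. Every member may be named, with values in every library for members called in any comparison or reaching a group mean of 20 CPM; Bmp7, Acvr1 and Grem1 were added after their values were seen. Of the other pathway genes, those called may be named, the 5 smallest p-values in each direction first. A member and another pathway gene are not reported here by name, but are in the counts. The fit was tested on simulated counts: 91.0% of 4-fold changes were recovered in the averaged comparison of cells, with 13507 genes tested. Changes were placed only in genes with a mean of at least 10 counts, and no differences in cell content were simulated. Replicates differed by more than sampling noise. Alternatives were DESeq2 1.42.0, other scalings and filters, fits on the compared groups, replicate blocks, and leaving out each library; the fit without 5 control-cell libraries and the fit on 8 libraries with no block were chosen after seeing the data.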

Additional observations from a re-analysis of the deposited data

Results flagged for a closer look

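In 9 of 96 sets of 4 control-cell libraries (a tested member on 1 diet), 1 library stood apart from the other 3 by Dixon's criterion; chance alone gives about 1 in 20, or 4.8. Of these, 6 are low values in control-diet replicate 4, the library with the least endothelium marker RNA: Acvrl1 at 3.92 CPM, Bmp1 at 0.619 CPM, Bmp6 at 3.30 CPM, Id3 at 3.71 CPM, Smad6 at 6.40 CPM and Smad7 at 23.9 CPM. On control diet Acvr1 was high in control-cell replicate 2 (7.40 CPM). On LS+ACEi Acvr1b was high in control-cell replicate 3 (18.5 CPM) and Id1 was low in control-cell replicate 1 (4.91 CPM).

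For Acvr1 the difference between the populations changed direction between the diets: macula densa lay below every control-cell library on control diet and above every one on LS+ACEi. Its control-cell libraries overlapped between diets. Acvr1 was the 1 member flagged by this rule, and the share of all genes that do the same was not counted. The difference of the diet effects was 1.35 on the log2 scale, and did not pass the test across all genes (edgeR adjusted p = 0.558).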

How the results depend on the processing

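No called member changed direction under any alternative run; of the 27 members not called in the average, 15 changed sign in at least 1 alternative, 5 of them without the endothelium-rich libraries (Bmp2k, Bmp7, Id2, Smurf2 and Tgfbr1). On control diet the 6 called members (938 genes) became 17 (2000 genes) with DESeq2's Wald test, and on LS+ACEi the 8 (1031 genes) became 16 (1922 genes). In macula densa between diets the count of 0 (0 genes) became 1 (93 genes) with DESeq2 and 2 (105 genes) on the macula densa libraries alone; DESeq2 called 74 genes between diets in control cells, against 1, and 13 for the difference of the diet effects, against 0. Fitting only the groups compared gave 5 members and 468 genes on control diet, and 12 members and 1178 genes on LS+ACEi. Leaving out 1 library gave 2 to 17 members (122 to 2490 genes) on control diet, 1 to 15 (194 to 1894 genes) on LS+ACEi and 13 to 27 (1680 to 3968 genes, against 3027) in the average; where an arm keeps 1 library, it is assumed to vary like the others. Without the 5 endothelium-rich libraries 464 genes were called on control diet and 1099 in the average.

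With a replicate block by the number in the titles, 4 members (378 genes) were called on control diet, 5 (396 genes) on LS+ACEi and 15 (1908 genes) in the average. With a replicate block by the number in the descriptions, shared by 4 pairs of macula densa and control-cell libraries, 4 control-cell libraries are left out (control-diet replicates 1 and 4 and LS+ACEi replicates 1 and 3), and there were 21 (2217 genes), 23 (2192 genes) and 28 (3630 genes). Every control-cell library kept there was endothelium-rich (938 to 1376 CPM of the markers), and the 3 with the fewest markers were among those left out. The same 8 libraries with no block, an alternative chosen after seeing the data, gave 21 (2333 genes), 24 (2281 genes) and 28 (3876 genes). The labels do not say what these numbers mark, so they were not taken as pairing in the main fit. The pairs' deviations from their group means correlated at 0.075, 0.227, -0.018 and -0.037. With 2 macula densa libraries a diet, their deviations mirror each other, so these values cannot decide whether the libraries are paired. Depth limits members under 1 CPM, where 3 counts are 0.230 to 0.732 CPM.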
